A study of Macaca fascicularis with 28 samples.

Results

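The orphan and adhesion G protein-coupled receptors are, for the most part, cell surface proteins of the 7-transmembrane type that carry GPR, GPRC, ADGR, LPHN, CELSR, MRGPR or FFAR symbols. All genes on the array whose symbol began with one of these stems were taken, by the name in the study's gene list where it gave one and otherwise by the array annotation. This gave 89 genes, measured by 124 probe sets, of 14869 gene symbols named on the array. Of the 89, 8 have such symbols but are not classical receptors, among them proteins of the Golgi and of lysosomes. They are counted with the receptor genes below. Where a gene had several probe sets, as 27 did, the one brightest on average over the 28 arrays stood for it. The study's list holds genes that were selected for a higher signal in taste buds than in lingual epithelium in these same samples. For LPHN3, GPR75 and GPR155 the probe set used takes its name from that list alone, so that their difference between taste buds and lingual epithelium is given as a description, without a p-value, and is not independent evidence of its direction.

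Samples were cells of the tongue of cynomolgus macaques (Macaca fascicularis), cut out by laser capture microdissection and pooled within an animal, so that each sample is a mixture of cells. Animals were males and females of 2.6 to 4.5 years, and the labels give no treatment or genotype. Of the 28 samples, 20 formed a first set taken from 6 animals: circumvallate (CV) taste buds and the nearby lingual epithelium (LE) without taste buds from 4 animals (animals 1, 3, 4 and 5), and fungiform (FG) taste buds and their nearby LE from 6 animals (animals 1 to 6). The second set held the top and the bottom portion of CV taste buds from 4 other animals, all aged 3 years (animals 7 to 10). The RNA was amplified before labelling.

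Whole arrays were alike in brightness, with median intensities of 13.57 to 16.75 units and 37.32% to 40.83% of probe sets at 25 units or more, the lower limit of the study. Markers of type II taste cells, which hold the sweet, bitter and umami receptors, matched the tissue labels: the summed level of 8 type II taste cell genes was 13377 to 21337 units in taste buds of the first set and 172 to 313 units in LE. The 7 markers of differentiated keratinocytes summed to 67853 to 81450 units in LE and to 368 to 17662 units in taste buds, with the highest taste bud value in FG taste buds of animal 4. The 5 markers of type III taste cells, which respond to sour, summed to 1581 to 3781 units in CV taste buds and 987 to 1402 units in adjacent LE, but overlapped in the FG pair, at 1213 to 1767 units and 576 to 1287 units. Of these 5 genes, 4 were higher and NCAM1 lower in CV taste buds, and 3 were higher in FG taste buds. Most of the LE sum was NCAM1, with medians of 1131 and 887 units in CV-adjacent and FG-adjacent LE. The other type III markers had LE medians of at most 23.9 units. The 3 markers of glia-like type I taste cells summed to 515 to 1345 units in CV taste buds but to 51.2 to 199.8 units in FG taste buds, inside or below the range of 95.2 to 272 units in FG-adjacent LE. That difference lay in SLC1A3, with medians of 590 and 15.8 units in CV and FG taste buds. ENTPD2 (36.0 and 36.2 units) and KCNJ1 (6.9 and 6.8 units) were alike in both. In such bulk samples, fewer cells of a type and less RNA per cell cannot be told apart.

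Most of these receptors respond to signals from outside the cell by activating heterotrimeric G proteins, and those called orphans have no agreed natural ligand. Adhesion receptors carry a long extracellular part that binds proteins on neighbouring cells or in the matrix, and many are cleaved close to the membrane. Sweet, bitter and umami tastants are detected by other members of the G protein-coupled receptor superfamily, the TAS1R and TAS2R families, in type II cells. Receptors for free fatty acids (FFAR) and for amino acids and calcium (GPRC6A) have been discussed as taste receptors in rodents.

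Many of the receptors gave no signal above background on the array. Of the 89 genes, 25 did not reach 25 units in any sample, 64 reached it in at least 1 sample and 8 reached it in all 28. A test was made for a gene that reached 25 units in at least 4 samples of the fit. That left 43 genes in the first set and 29 in the second, 44 in all, and 45 were not tested. Intensities of the untested genes had a median of 8.47 units, with a range of 2.51 to 376 units. Signal near background on this array does not separate a low level from none, and intensities of different genes depend on their probes, so each gene is compared with itself only.

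Compared with adjacent LE, CV taste buds had 9 of the 43 tested receptor genes higher and 10 lower at an adjusted p of at most 0.05, where 17.3% of all tested probe sets were higher and 18.0% lower (35.3% in either direction). FG taste buds had 9 higher and 16 lower, where 21.1% of all tested probe sets were higher and 20.2% lower (41.2% in either direction). For the receptors, the percentages were 20.9% and 23.3% with CV, and 20.9% and 37.2% with FG taste buds. Over the 43 genes, the median log2 change was -0.28 for the CV pair and -0.41 for the FG pair, against -0.08 and 0.05 over all tested probe sets. In both taste bud types, 8 genes were higher: CELSR3, GPR125, GPRC5B, GPRC5C and GPR180 and, as a description only, LPHN3, GPR75 and GPR155. In both, 7 were called lower (GPR160, ADGRL2, GPR137B, ADGRB1, MRGPRD, GPR142 and GPR153). The share of all tested probe sets called in both was not counted, so these overlaps are a description only. The counts of genes higher include LPHN3, GPR75 and GPR155, which took their names from a list selected for that direction. Without them, 6 of 40 tested genes were higher in each taste bud type, where 17.3% (CV) and 21.1% (FG) of all tested probe sets were. Over all 43 genes, the paired t-test of the study's methods after adjustment gave 3 higher in CV taste buds (GPR125, LPHN3 and GPR75). It gave 4 higher in FG taste buds (LPHN3, GPRC5B, GPRC5C and GPR180). By that test 5.42% and 12.6% of all tested probe sets were higher. Without animal 4, or without animal 5, 6 genes were called lower in CV taste buds, where 3251 of 24873 and 3306 of 25046 probe sets were. With values under 25 units raised to 25, 4 were called higher in FG taste buds, where 4825 of 26176 probe sets were. With a 5-fold change required as well, 8 genes were higher and 3 lower in CV taste buds (9.43% and 7.82% of all tested probe sets), and 2 were higher and 2 lower in FG taste buds (8.24% and 3.71%). Of those higher, 5 in CV and 1 in FG were left without LPHN3, GPR75 and GPR155. A gene dim in 1 tissue could pass the filter through the other. Neither these counts nor the shares over all probe sets are independent of that filter.

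Latrophilins are adhesion receptors that bind teneurins and FLRT proteins across cell contacts, and their 3 measured genes behaved differently. LPHN3 (current symbol ADGRL3) had intensities of 313, 406, 163 and 717 units in CV taste buds of animals 1, 3, 4 and 5, and 6.3, 4.7, 4.2 and 5.6 units in the adjacent LE. The lowest, median and highest values were 178, 620 and 756 units in FG taste buds, against 4.3, 6.3 and 9.9 units in the adjacent LE. Every taste bud sample lay far above every LE sample, all of which were under 25 units. The log2 change was 6.08 ± 0.52 (SE; higher in 4 of 4 animals) in CV and 6.14 ± 0.43 (6 of 6 animals) in FG taste buds, at least 14.0-fold and at least 17.5-fold. The array annotation gives this probe set only a numbered locus.

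ADGRL2, the latrophilin 2 gene, went the other way. It measured 47.6, 133, 72.4 and 55.8 units in CV taste buds and 216, 194, 338 and 469 units in adjacent LE. Its values in FG taste buds were 18.7, 25 and 32.2 units (lowest, median and highest), against 93.9, 142 and 376 units in adjacent LE. The ranges did not overlap in either pair of tissues, and FG taste buds stood around the 25-unit limit. The log2 changes were -2.01 ± 0.48 (SE; limma adjusted p = 0.00521) in CV and -2.75 ± 0.39 (adjusted p = 0.000106) in FG taste buds, lower in all 4 and all 6 animals. Without animal 5, and in the paired t-test, the CV value no longer passed. ADGRL1, the latrophilin 1 gene, had log2 changes of -0.03 ± 0.65 and -0.17 ± 0.53 and passed in neither.

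**Figure D1:**
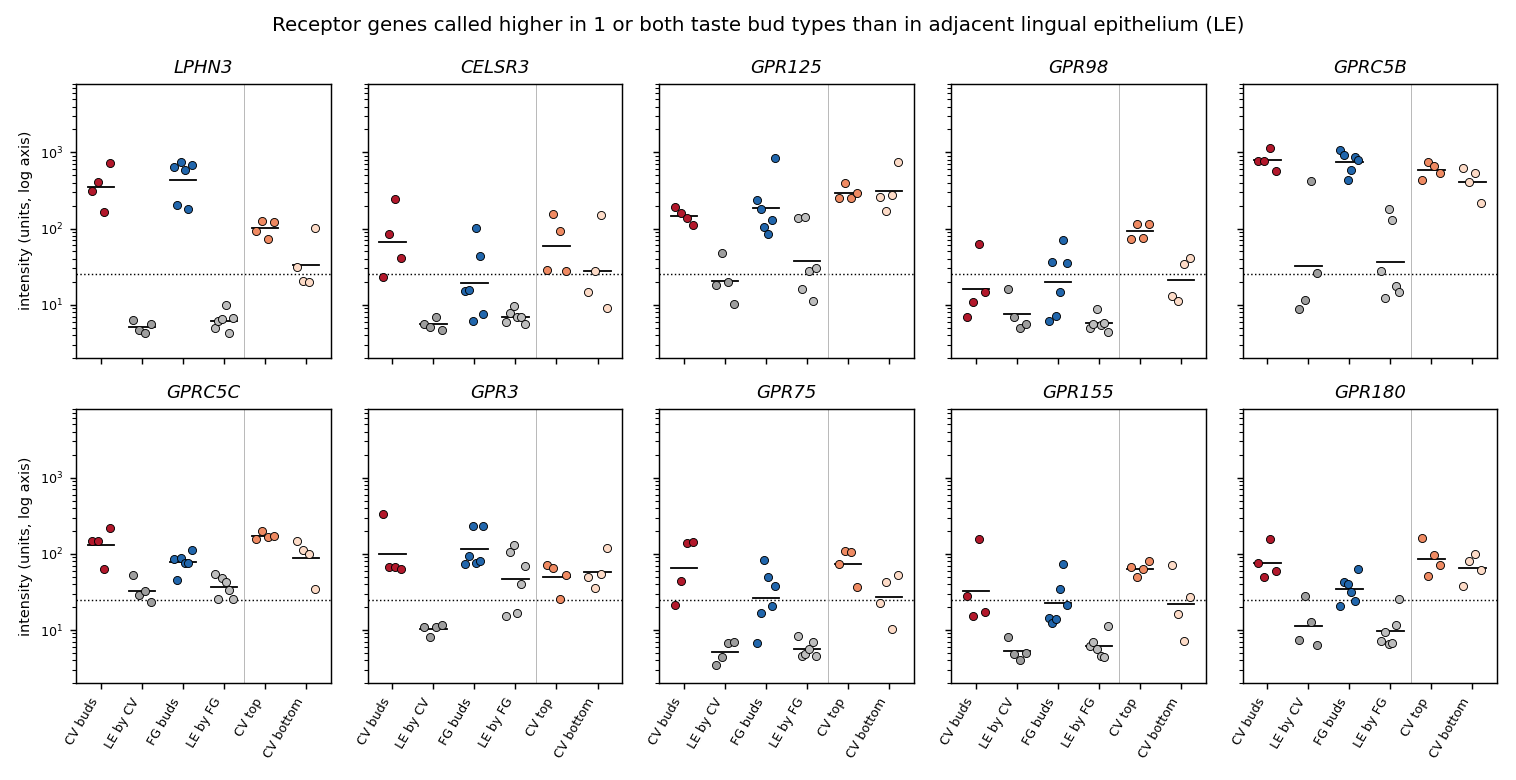
Intensity of 10 receptor genes in every sample (points) with the geometric mean of each group (bar), on a log axis; the dotted line marks 25 units and the vertical line separates the 2 array sets. LPHN3 was under 10 units in all LE samples and at 163 units or more in all whole CV and FG taste bud samples, and GPR98 was at 73 to 115 units in the CV top fractions.

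CELSR3, a flamingo cadherin of the planar cell polarity pathway that also guides axons, was called higher in both taste bud types. It measured 23.0, 85.8, 246 and 40.7 units in CV taste buds and 5.6, 5.1, 7.0 and 4.7 units in adjacent LE, without overlap. In FG taste buds the lowest, median and highest values were 6.1, 15.5 and 101 units, against 5.6, 6.8 and 9.6 units in LE, and the ranges overlapped. The log2 changes were 3.59 ± 0.65 (adjusted p = 0.000816) in CV and 1.46 ± 0.53 (adjusted p = 0.0416) in FG taste buds. No LE sample reached 25 units, so CELSR3 passed the filter through taste buds alone and its p-values are not independent of that filter. The FG call was lost in 7 of 11 alternatives, among them leaving out animal 1 or animal 2 and raising values under 25 units to 25. The CV call was lost in the paired t-test (adjusted p = 0.0683).

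GPR125 (current symbol ADGRA3), an adhesion receptor of the group that also holds ADGRA1 and ADGRA2, measured 193, 161, 139 and 110 units in CV taste buds and 18.4, 48.1, 20 and 10.2 units in adjacent LE. Values in FG taste buds were 85.6, 154 and 851 units (lowest, median and highest), against 11.1, 29.2 and 141 units in LE. CV taste buds and LE did not overlap, whereas in FG animal 3 had the higher value in LE. GPR125 was higher by 2.84 ± 0.70 (adjusted p = 0.00614) and by 2.30 ± 0.57 (adjusted p = 0.00581) on the log2 scale, at least 5.01-fold and at least 3.98-fold. The FG call was lost in the paired t-test (adjusted p = 0.0935).

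GPR98 (current symbol ADGRV1) encodes a very large adhesion receptor that forms part of the ankle links of hair cell stereocilia, and it is an Usher syndrome gene. It measured 6.8, 10.9, 62.7 and 14.5 units in CV taste buds and 16.2, 7.0, 5.0 and 5.6 units in adjacent LE. For FG taste buds the lowest, median and highest values were 6.1, 25.1 and 70.7 units, against 4.4, 5.6 and 8.7 units in LE. Only 3 of the 6 FG taste bud samples reached 25 units. No LE sample did, so GPR98 passed the filter through taste buds alone and its p-values are not independent of that filter. The log2 change passed in FG taste buds (1.79 ± 0.62, adjusted p = 0.0341, 5 of 6 animals) and not in CV taste buds (1.11 ± 0.77, adjusted p = 0.278). The difference between these changes, CV minus FG, was -0.68 ± 0.99 and did not pass (adjusted p = 0.799). The FG call was lost when values under 25 units were raised to 25 and in the paired t-test. The gene dropped below the filter when animal 2, 4, 5 or 6 was left out.

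GPRC5B and GPRC5C belong to the class C receptors induced by retinoic acid and have a short extracellular part. GPRC5B measured 773, 773, 1139 and 571 units in CV taste buds and 8.7, 11.7, 416 and 25.9 units in adjacent LE. The FG taste buds held 433, 824 and 1089 units (lowest, median and highest), against 12.4, 22.8 and 182 units in adjacent LE. No LE sample reached the taste bud range of its own papilla type, although LE of animal 4 next to CV papillae was far above the other 3. Its log2 changes were 4.61 ± 0.94 (adjusted p = 0.00186) and 4.38 ± 0.77 (adjusted p = 0.000597). Between geometric means with values under 25 units raised to 25, this was an estimated 15.5-fold and 16.0-fold. A second GPRC5B probe set was higher as well, by 2.74 ± 0.71 and 3.16 ± 0.58 on the log2 scale (adjusted p = 0.00885 and 0.000861). In the paired t-test the CV call of the brightest probe set was lost (adjusted p = 0.0981).

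GPRC5C measured 146, 147, 62.7 and 218 units in CV taste buds and 52.4, 29.1, 32.8 and 23.1 units in LE. Values for FG taste buds were 45.5, 80.2 and 114 units (lowest, median and highest), against 25.4, 38.1 and 54.4 units in LE. The CV ranges were apart and the FG ranges overlapped, with every animal higher in its taste buds. GPRC5C was higher by 2.00 ± 0.37 (adjusted p = 0.000952) with CV and by 1.08 ± 0.30 (adjusted p = 0.0118) with FG taste buds, on the log2 scale. The CV call was lost in the paired t-test (adjusted p = 0.101). The 3 other class C genes were not tested. GPRC6A, a receptor for basic amino acids, was at 4.7 to 8.6 units in all taste buds of the first set and at 4.7 to 12.5 units in LE. GPRC5D, known from plasma cells and hair follicles, was at 9.0 to 12.4 units in these taste buds and at 9.2 to 26.2 units in LE.

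Among class A receptors, GPR75 and GPR3 were higher. GPR75, which binds a hydroxylated arachidonic acid, measured 21.2, 44.6, 137 and 141 units in CV taste buds and 3.5, 4.4, 6.8 and 6.9 units in LE. In FG taste buds its lowest, median and highest values were 6.7, 29.2 and 82.2 units, against 4.5, 5.3 and 8.3 units in LE. The CV groups did not overlap, and in FG animal 1 was lower in its taste buds than in LE. The log2 changes were 3.65 ± 0.60 and 2.23 ± 0.49. The FG difference did not pass when values under 25 units were raised to 25, nor in the paired t-test.

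GPR3 is known to activate adenylyl cyclase without an added ligand. It measured 335, 67.7, 66.8 and 64.2 units in CV taste buds and 11.1, 8.1, 11.1 and 11.5 units in adjacent LE. FG taste buds measured 73.1, 87.7 and 233 units (lowest, median and highest), and LE 15.1, 54.5 and 129 units. CV taste buds were all above CV-adjacent LE, with animal 1 well above the others, while FG taste buds and LE overlapped. The CV change passed (3.26 ± 0.67 on the log2 scale, adjusted p = 0.00192, at least 3.97-fold) and the FG change did not (1.31 ± 0.55, adjusted p = 0.0686). Without animal 1 the CV change was 2.71 and still passed, but in the paired t-test the CV change did not pass (adjusted p = 0.0630). The difference between the changes was 1.95 ± 0.86 and did not pass (adjusted p = 0.307).

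GPR155 and GPR180 have symbols of the GPR series but are not classical receptors. GPR155 is a protein of lysosomes that senses cholesterol. It measured 28.2, 15.4, 157 and 17.4 units in CV taste buds and 8.0, 4.8, 4.0 and 5.0 units in LE, and 12.2, 17.8 and 72.6 units (lowest, median and highest) in FG taste buds against 4.4, 6.0 and 11.2 units in LE. Taste buds and LE did not overlap in either case, but most taste bud values of GPR155 were themselves close to 25 units. Its log2 changes were 2.65 ± 0.66 and 1.87 ± 0.54, and neither passed once values under 25 units were raised to 25, nor in the paired t-test. The other GPR155 probe sets, which the array annotation names, were too dim to be tested.

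GPR180 measured 76.0, 49.2, 155 and 58.8 units in CV taste buds and 7.3, 27.8, 12.6 and 6.3 units in adjacent LE. FG taste buds measured 20.5, 35.4 and 62.8 units (lowest, median and highest), and LE 6.6, 8.3 and 25.3 units. The CV groups were apart, and in FG the ranges overlapped although all 6 animals were higher in taste buds. GPR180 changed by 2.76 ± 0.45 (adjusted p = 0.000332) and 1.81 ± 0.37 on the log2 scale (adjusted p = 0.00163). Only 1 LE sample of each site reached 25 units. GPR180 thus passed the filter through taste buds, and its p-values are not independent of that filter. The FG call was lost when values under 25 units were raised to 25, with a log2 change of 0.51 (adjusted p = 0.134), and the CV call was lost in the paired t-test.

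GPR160 had the largest fold among the receptor genes called lower in both taste bud types. This orphan receptor has been proposed to bind the appetite peptide CART. It measured 53.8, 11.6, 9.9 and 15.1 units in CV taste buds and 823, 1062, 998 and 626 units in adjacent LE. Its lowest, median and highest values in FG taste buds were 10.1, 12.3 and 108 units, against 152, 260 and 438 units in LE. No taste bud sample reached any LE sample, and FG taste buds of animal 6 were the single value above 25 units in that group. In CV taste buds, too, only 1 sample reached 25 units. GPR160 thus passed the filter through LE, and its p-values are not independent of that filter. GPR160 was lower by log2 changes of -5.62 ± 0.64 (adjusted p = 1.75e-05) in CV and -3.85 ± 0.53 (adjusted p = 7.45e-05) in FG taste buds, at least 28.4-fold and at least 7.75-fold. Both calls were kept in all 13 alternatives. Without animal 6 the FG change was -4.43.

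GPR137B, a membrane protein of lysosomes, was bright in all samples. It measured 1924, 1199, 969 and 1682 units in CV taste buds and 4900, 4832, 5182 and 4557 units in LE. In the FG pair, taste buds measured 1235, 1609 and 2322 units (lowest, median and highest), and LE 2582, 4174 and 5172 units. The groups were apart in both papilla types. GPR137B changed by -1.80 ± 0.32 (adjusted p = 0.000717) and -1.24 ± 0.26 on the log2 scale (adjusted p = 0.00235), 3.49-fold and 2.36-fold. A second GPR137B probe set was called lower in FG taste buds (-1.11 ± 0.29, adjusted p = 0.00857) and not in CV taste buds (-0.45 ± 0.36, adjusted p = 0.354).

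ADGRB1, also known as BAI1, takes part in the uptake of dying cells through phosphatidylserine. It measured 65.8, 67.9, 53.2 and 56.4 units in CV taste buds against 210, 90.1, 113 and 106 units in LE, and 50.8, 58.7 and 85.1 units (lowest, median and highest) in FG taste buds against 90.9, 169 and 225 units in LE. Both pairs of groups were apart. ADGRB1 changed by -1.02 ± 0.27 (adjusted p = 0.00984) and -1.37 ± 0.22 on the log2 scale (adjusted p = 0.000304). The CV call was lost without animal 1 or animal 4, and in the paired t-test. The gene for the related receptor BAI2, outside the symbol stems used here because the study's list gives the older name, changed in the other direction, by 1.78 ± 0.44 (adjusted p = 0.00664) in CV and 1.74 ± 0.36 (adjusted p = 0.00194) in FG taste buds.

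**Figure D2:**
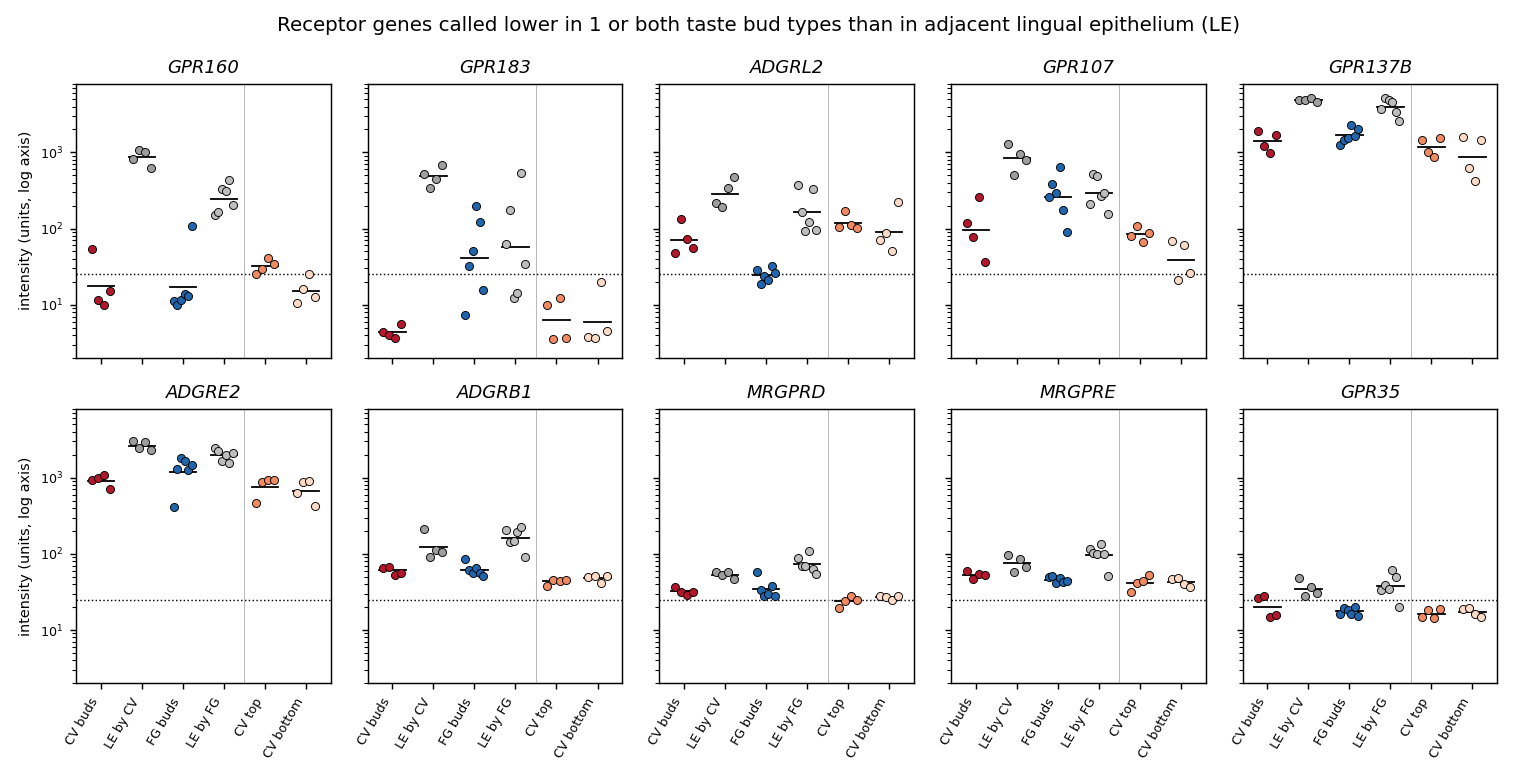
Intensity of 10 receptor genes in every sample (points) with the geometric mean of each group (bar), on a log axis; the dotted line marks 25 units and the vertical line separates the 2 array sets. GPR160 lay at 626 to 1062 units in CV-adjacent LE and at 9.9 to 53.8 units in whole CV taste buds. GPR183 lay under 6 units in all whole CV taste bud samples but spread over 7.3 to 195 units in FG taste buds.

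In CV taste buds and not in FG taste buds, 3 genes were called lower: GPR183, GPR107 and ADGRE2. The share of all tested probe sets called lower in CV alone was not counted. GPR183 is the oxysterol receptor that guides B cells, T cells and dendritic cells. It measured 4.4, 4.0, 3.7 and 5.6 units in CV taste buds and 520, 346, 446 and 692 units in adjacent LE. The FG taste bud values were spread, with a lowest, median and highest of 7.3, 41.5 and 195 units, against 12.3, 48.2 and 535 units in LE. CV taste buds were all at background with LE well above, while FG taste buds and LE covered much the same range. The log2 change was -6.80 ± 0.97 (adjusted p = 0.000116, at least 19.4-fold) in CV and -0.49 ± 0.79 (adjusted p = 0.642) in FG taste buds.

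GPR107, a protein of the Golgi and its transport vesicles, measured 120, 78.3, 258 and 36.7 units in CV taste buds and 1308, 512, 945 and 787 units in adjacent LE. FG taste buds measured 91.1, 276 and 634 units (lowest, median and highest), and LE 157, 279 and 514 units. Again the CV groups were apart and the FG groups overlapped. The log2 changes were -3.11 ± 0.47 (adjusted p = 0.000196, 8.65-fold) and -0.19 ± 0.39 (adjusted p = 0.715). Its other probe sets did not pass in CV taste buds, where one changed by -0.85 ± 0.70 on the log2 scale (adjusted p = 0.362) and the other by -0.19 ± 0.48 (adjusted p = 0.791). In the paired t-test the CV call of the brightest probe set was lost (adjusted p = 0.0635).

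The difference between the CV effect and the FG effect was tested directly, as the log2 change of CV taste buds over their LE minus that of FG taste buds over theirs. Of the 43 genes, 2 passed, both with a lower CV effect, where 0.871% of all tested probe sets passed and 0.600% did so in that direction. They were GPR183, with a difference of -6.31 ± 1.25 (adjusted p = 0.0331), and GPR107, with -2.92 ± 0.61 (adjusted p = 0.0397). GPR183 lost this call in 5 of 11 alternatives, when animal 1, 3, 4 or 5 was left out and when values under 25 units were raised to 25. GPR107 lost it in 9 of 11, among them the removal of any of the 6 animals. Over all tested probe sets, leaving out 1 animal called 8 to 150 with a lower CV effect, against 157 with every animal kept. Adjusted p ranged from 0.0245 to 0.142 for GPR183 and from 0.0308 to 0.207 for GPR107 over the alternatives.

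Of 5 leukocyte markers, CD68 and CD207 were called lower in both taste bud types, whereas GPR183 was called in CV taste buds alone. The 5 leukocyte genes summed to 1508 to 2552 units in CV-adjacent LE and 118 to 319 units in CV taste buds, and to 729 to 2386 units and 257 to 842 units for the FG pair. Much of that sum was CD68, with medians of 1432 and 43.8 units in CV-adjacent LE and CV taste buds, whereas the pan-leukocyte gene PTPRC had medians of 109 and 90.3 units. The part of leukocytes in the GPR183 difference was not tested. GPR18 and GPR65, which are also known from lymphoid cells, were uneven between animals. GPR18 measured 6.8, 171, 57.2 and 18.0 units in CV-adjacent LE, at most 11.4 units in CV taste buds, and at most 6.3 units in FG-adjacent LE, with 108 and 112 units in FG taste buds of animals 3 and 5. Its log2 changes were -2.23 ± 0.92 (adjusted p = 0.0754) in CV and 1.89 ± 0.76 (adjusted p = 0.0587) in FG taste buds, and the difference between them, -4.12 ± 1.19, did not pass (adjusted p = 0.118). GPR65, a proton-sensing receptor, had log2 changes of -1.44 ± 0.72 and 1.37 ± 0.59 and likewise passed in neither.

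ADGRE2, an adhesion receptor of myeloid cells, was bright throughout. It measured 924, 1004, 1079 and 704 units in CV taste buds and 2994, 2427, 2958 and 2278 units in adjacent LE. Taste buds of FG papillae measured 407, 1395 and 1829 units (lowest, median and highest), and LE 1551, 2060 and 2454 units. The CV groups were apart, and the FG groups overlapped. The CV change passed (-1.53 ± 0.38 on the log2 scale, adjusted p = 0.00686, 2.89-fold) and the FG change did not (-0.72 ± 0.31, adjusted p = 0.0787), with a difference between them of -0.81 ± 0.49 that did not pass (adjusted p = 0.465).

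Many of the genes called lower in FG taste buds were dim. Of the 16, 11 had medians under 100 units in both tissues, with LE medians of 31.65 to 69.14 units, and in CV taste buds this held for 3 of the 10 (GPR142, GPR153 and MRGPRD). Those of the FG comparison were ADGRA1, FFAR1, GPR132, GPR142, GPR152, GPR153, GPR35, GPR4, GPR55, GPR6 and MRGPRD, with log2 changes from -1.20 to -0.69. Apart from GPR4 and MRGPRD, each reached 25 units in at most 1 FG taste bud sample. Those genes passed the filter only with LE samples, so their p-values, also those for CV taste buds, are not independent of that filter. GPR153 has a second, fainter probe set with log2 changes of 0.66 ± 0.50 and 0.96 ± 0.40, opposite in sign and not called (adjusted p = 0.317 and 0.0712). The dim genes include receptors for lipids and metabolites, such as the long-chain fatty acid receptor FFAR1, the kynurenic acid receptor GPR35 and the lysophosphatidylinositol receptor GPR55. The FG-adjacent LE arrays were also brighter on the whole, with array medians of 14.59 to 16.75 units against 13.73 to 14.77 units in FG taste buds. Over the 25848 probe sets that were too dim to be tested, the median log2 difference between FG taste buds and LE was -0.26, and over the 46 receptor genes among them it was -0.45. With each array centred on its median, 10 of the 11 still passed, and with values under 25 units raised to 25, 9 did. The part of background signal in these calls was not tested.

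FFAR1 measured 17.1, 18.5 and 27.1 units (lowest, median and highest) in FG taste buds and 17.3, 42.0 and 49.6 units in FG-adjacent LE. It measured 34.9, 21.0, 17 and 26.4 units in CV taste buds and 40.5, 21.1, 23.4 and 27.2 units in their LE. All groups overlapped and stood close to the 25-unit limit. The FG change was -0.83 ± 0.26 on the log2 scale (adjusted p = 0.0229), and the CV change was -0.18 ± 0.32 (adjusted p = 0.699). The FG call was lost in 6 of 12 alternatives, among them the removal of animal 2, 3, 4 or 5. FFAR4, the other receptor for long-chain fatty acids, was not tested: it was at 9.2 to 12.6 units in FG and CV taste buds, and a single FG-adjacent LE sample, of animal 3, was at 376 units. FFAR2, a receptor for short-chain fatty acids, stood at 6.9 to 16.3 units in these taste buds.

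Of the MRG family, receptors known from itch-sensing and pain-sensing neurons, 2 of 6 genes were tested. MRGPRD, the beta-alanine receptor, measured 37.1, 31.9, 28.8 and 31.8 units in CV taste buds and 57.9, 52.1, 56.9 and 46.1 units in adjacent LE. Taste buds of FG papillae measured 27.8, 31.3 and 58.6 units (lowest, median and highest), and LE 53.7, 69.1 and 109 units. CV taste buds and LE were apart by a narrow margin, and FG taste buds of animal 1 reached into the LE range. MRGPRD changed by -0.72 ± 0.26 (adjusted p = 0.0449) and -1.09 ± 0.21 on the log2 scale (adjusted p = 0.00128). The CV call was lost in 9 of 13 alternatives, including the removal of any of the 6 animals, and a second MRGPRD probe set was called in FG taste buds (-0.75 ± 0.23, adjusted p = 0.0173) and not in CV taste buds (-0.46 ± 0.28, adjusted p = 0.211). MRGPRE was called lower in FG taste buds (-1.07 ± 0.21, adjusted p = 0.00122), and its CV change was -0.50 ± 0.25 (adjusted p = 0.142). MRGPRX2, the mast cell member, was not tested, at 11.8 to 23.4 units in taste buds of the first set and 16.3 to 36.3 units in LE.

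**Figure D3:**
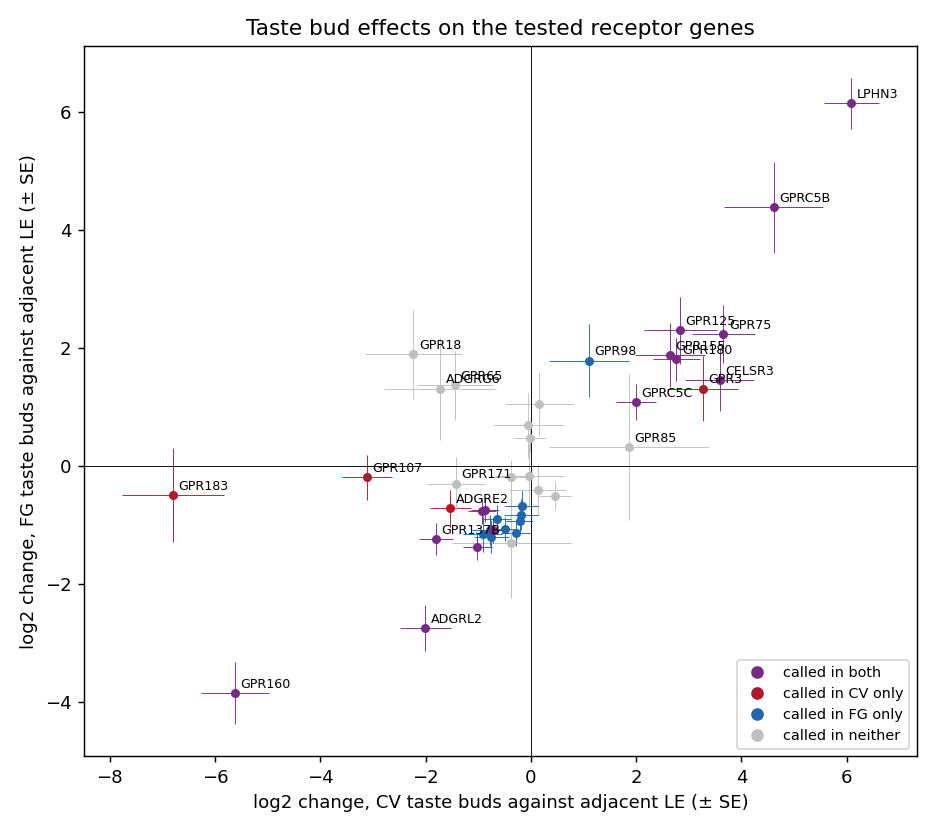
Log2 change in CV taste buds against adjacent LE (horizontal axis) and in FG taste buds against adjacent LE (vertical axis) for the 43 tested receptor genes, with standard errors as bars and colours for the comparison in which a gene was called. LPHN3 and GPRC5B lie at the upper right, GPR160 at the lower left, and GPR183 and GPR107 lie far to the left with FG values of -0.49 and -0.19.

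Several well-measured genes were called in neither taste bud type. GPR108, a Golgi protein related to GPR107, was at 229 to 669 units in all taste buds of the first set and at 236 to 494 units in LE, with log2 changes of -0.02 ± 0.31 and 0.48 ± 0.25. GPR89A, a Golgi pH regulator, had changes of -0.05 ± 0.67 and 0.69 ± 0.55, and GPR137 of 0.13 ± 0.54 and -0.41 ± 0.44. ADGRG7 had changes of 0.46 ± 0.31 and -0.50 ± 0.25. ADGRG6, which Schwann cells need for myelination, varied widely within LE: it measured 515, 274, 198 and 1222 units next to CV papillae and from 13.9 to 751 units next to FG papillae, where LE of animal 5 was far above the other 5. With such spread, its log2 changes of -1.72 ± 1.06 and 1.31 ± 0.87 did not pass.

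No receptor gene was called between CV and FG taste buds by limma's adjusted p (0 of 43), where 0.871% of all tested probe sets were. At an unadjusted p under 0.05 there were 9 of 43, where 11.6% of all tested probe sets were, and the paired t-test of the study's methods gave 6 before adjustment, where it gave 9.99% of all. GPR107 had a log2 difference (CV minus FG) of -1.54 ± 0.45 (adjusted p = 0.153), GPR180 of 1.47 ± 0.43 (adjusted p = 0.151), GPR183 of -3.32 ± 0.93 (adjusted p = 0.130) and GPR63, an orphan receptor of class A, of -2.03 ± 0.63 (adjusted p = 0.180). GPR63 measured 16.6, 17.9, 13.7 and 24.7 units in CV taste buds and 21.7, 64.7 and 257 units (lowest, median and highest) in FG taste buds. LPHN3 differed by -0.38 ± 0.50 and GPRC5B by -0.22 ± 0.90, each less than its standard error.

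LE next to CV papillae and LE next to FG papillae had no called difference either, where 1.26% of all tested probe sets differed. At an unadjusted p under 0.05 there were 11 of 43, where 17.1% of all tested probe sets were, and the paired t-test gave 8 before adjustment, where it gave 12.7% of all. GPR160 was 626 to 1062 units next to CV and 152 to 438 units next to FG papillae, without overlap, yet its log2 difference of 1.93 ± 0.62 had an adjusted p of 0.134. For GPR183 it was 2.99 ± 0.93 (adjusted p = 0.122), for ADGRG6 3.14 ± 1.02 (adjusted p = 0.139) and for GPR107 1.38 ± 0.45 (adjusted p = 0.140).

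Within 4 animals, the upper part of CV taste buds was set against the lower part. GPR85, a brain-expressed orphan receptor conserved among vertebrates, was the single receptor gene called by the probe set that stands for it, 1 of 29 tested, where 3.14% of all tested probe sets were called and 1.68% were higher in the top. In the top it measured 66.2, 151, 44.4 and 91.1 units for animals 7, 8, 9 and 10, and in the bottom 15.4, 11.2, 16.4 and 22.4 units. All top values lay above 25 units and all bottom values below. The log2 difference was 2.33 ± 0.41 (adjusted p = 0.0430; 4 of 4 animals), at least 3.19-fold. Only the 4 top samples reached 25 units, so the gene passed the filter through the top alone. Its p-value is not independent of that filter. The gene dropped below the filter when any animal was left out. The call was lost when values under 25 units were raised to 25, without the filter, and in the paired t-test. That t-test called 0 of the 21167 probe sets of the fractions, so it could not keep the call. In whole taste buds GPR85 was erratic, with 10.5, 371, 131 and 215 units in CV taste buds and 24.9, 13.6, 166 and 11.1 units in LE, and it passed in neither taste bud type.

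For GPRC5B the second, fainter probe set was called higher in the top (1.54 ± 0.29 on the log2 scale, adjusted p = 0.0470), and the brightest was not (0.49 ± 0.36, adjusted p = 0.494). GPR98 came next to GPR85 by size. It measured 115, 74.1, 115 and 73.0 units in the top of animals 7, 8, 9 and 10 and 11.3, 34.4, 40.7 and 13.1 units in the bottom. The groups did not overlap and all 4 animals were higher in the top, but the log2 difference of 2.11 ± 0.42 did not pass (adjusted p = 0.0534). LPHN3 measured 128, 72.7, 123 and 93.1 units in the top and 20.3, 19.8, 103 and 30.9 units in the bottom, a log2 difference of 1.59 ± 0.41 (adjusted p = 0.0984). The bottom of animal 9 reached into the top range. GPR160, low in whole taste buds, measured 29.5, 40.9, 34.0 and 25.4 units in the top and 16.3, 25, 12.7 and 10.5 units in the bottom, a difference of 1.07 ± 0.26 (adjusted p = 0.0843).

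In all, 10 of the 29 genes had an unadjusted p under 0.05, where 20.7% of all tested probe sets did, all with the higher value in the top, and 8 were higher in the top in 4 of 4 animals while 1 was lower in all 4. Besides the 4 genes above, these 10 were GPR155, GPR75, GPR107, ADGRF3, ADGRG6 and GPRC5C, with log2 differences from 0.98 to 1.57. GPR125 and GPR3 had differences of -0.08 ± 0.43 and -0.21 ± 0.43. The median difference of the 29 genes was 0.40 against 0.13 over all tested probe sets. Markers of the tissue moved with the fraction: the type II taste cell genes summed to 22194 to 26487 units in the top and 11403 to 16693 units in the bottom, and 5 fibroblast genes to 581 to 1710 units and 4131 to 5593 units. The part of these cell proportions in the receptor differences was not tested.

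**Figure D4:**
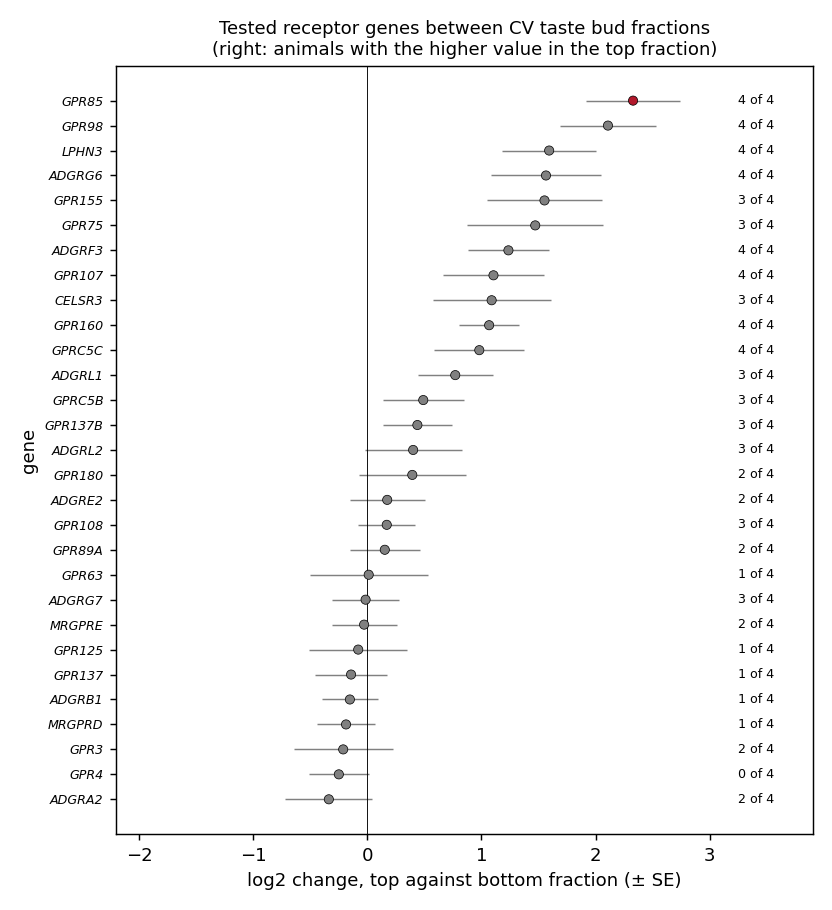
Log2 difference between the top and the bottom portion of CV taste buds for the 29 tested receptor genes (horizontal axis, with standard errors), sorted by size, with the number of animals higher in the top at the right. GPR85 (2.33, red) was the only gene called by the probe sets plotted, followed by GPR98 (2.11).

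Known partners of these receptors were read from lists of their names. Of the latrophilin ligands, 6 of 9 listed genes on the array were tested, of which 2 were higher in CV and 3 higher and 1 lower in FG taste buds. Over all tested probe sets, 17.3% were higher in CV, and 21.1% were higher and 20.2% lower in FG taste buds. The partner lists are short, and their counts were not tested against such shares. FLRT3, which binds latrophilins, was higher by 6.03 ± 0.36 on the log2 scale (adjusted p = 3.93e-08) in CV and by 5.86 ± 0.30 (adjusted p = 4.03e-09) in FG taste buds, and it was also higher in the top than the bottom portion (1.48 ± 0.27, adjusted p = 0.0435). TENM4, a teneurin that the study's list names ODZ4, was higher by 4.04 ± 0.49 and 3.73 ± 0.40. That list was selected for this direction, so the TENM4 values are a description only. UNC5B, a netrin receptor that FLRT proteins also bind, was higher in FG taste buds (1.94 ± 0.47, adjusted p = 0.00532), and TENM2 was lower there (-1.17 ± 0.23, adjusted p = 0.00145).

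The core planar polarity list, which goes with CELSR3, had 8 of 9 genes tested, with 3 higher in both taste bud types and 1 lower in CV. Of all tested probe sets, 17.3% were higher and 18.0% lower in CV, and 21.1% were higher in FG taste buds. VANGL2 was higher by 4.52 ± 0.65 (adjusted p = 0.000126) and 3.28 ± 0.53 (adjusted p = 0.000314), the Wnt receptor gene FZD3 by 3.01 ± 0.51 (adjusted p = 0.000435) and 4.13 ± 0.41 (adjusted p = 4.1e-06), and PRICKLE1 by 3.57 ± 0.78 (adjusted p = 0.00296) and 3.94 ± 0.64 (adjusted p = 0.000312). DVL2, a cytoplasmic Wnt mediator, was lower in CV taste buds (-1.05 ± 0.37, adjusted p = 0.0398).

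Of the arrestins and receptor kinases, which shut off activated receptors, 10 of 11 were tested, with 2 higher in both taste bud types, 2 lower in CV and 3 lower in FG. These counts were near the shares over all tested probe sets. Those shares were 17.3% higher and 18.0% lower in CV, and 21.1% higher and 20.2% lower in FG taste buds. The kinase genes GRK3 and GRK5 were higher by 2.90 ± 0.51 and 2.84 ± 0.52 in CV and by 2.76 ± 0.41 and 2.73 ± 0.42 in FG taste buds (adjusted p of 0.000818 or less). The arrestin-domain gene ARRDC1 was lower in both (-1.92 ± 0.50 and -1.96 ± 0.41, adjusted p = 0.00893 and 0.00208), GRK2 in CV (-0.88 ± 0.30, adjusted p = 0.0337), and ARRB1 and GRK4 in FG taste buds (-2.94 ± 0.95 and -0.67 ± 0.26, adjusted p = 0.0236 and 0.0497). The Usher list, which goes with GPR98 and is not limited to its direct partners, had 4 of 5 genes tested. WHRN was higher in CV (1.20 ± 0.35, adjusted p = 0.0171), CDH23 lower in CV (-1.14 ± 0.42, adjusted p = 0.0475) and PDZD7 lower in FG taste buds (-0.81 ± 0.24, adjusted p = 0.0147). Of the partner genes, FLRT3, PRICKLE1, GRK3, GRK5 and WHRN had medians under 25 units in LE of both sites. TENM2, GRK4 and PDZD7 had medians under 25 units in both taste bud types. For these genes the brighter tissue weighed most in the filter, and their p-values are not independent of it.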

How the data were processed

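The deposited values are linear intensities, 1 per probe set of 52024 and sample, which the authors background corrected and normalized with GC-RMA over all arrays; the software version is not given in the sources used here. They were log2 transformed. Using limma 3.58.1 in R 4.3.3, each probe set that reached 25 units in at least 4 samples of the fit was modelled with tissue and animal, the animal as a fixed block, with Benjamini-Hochberg adjustment over every probe set tested (26176 in the first set, 21167 in the second). The 4 tissues of the first set were fitted together, and the 2 fractions alone. Calls are adjusted p-values of 0.05 or less. Values are log2 changes ± SE. Folds compare geometric means with values under 25 raised to 25, and are written "at least" if raising touched the dimmer tissue and the ratio of plain means was no smaller; other folds are estimates.

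The animal is the replicate and pairs the samples, by the labels. Deviations from group means correlated by 0.05 to 0.12 on average within animals and by -0.04 to -0.01 between animals. No arrays were identical, and their number limits the precision. Named are the genes with a call in any test, those in the study's list, the 3 brightest of each role group and partner genes with a call; other receptors named for their role or size were chosen after their values were seen. The members and lists were chosen with earlier results of these data known. A probe set annotated to CELSR3 but named SLC26A6 in the study's list was left out. Alternatives were raised low values, centred arrays, no filter, no replicate block, pooled LE, the paired t-test of the study's methods, each animal left out in turn, and the mean of a gene's probe sets. The fits were tested on simulated data. No probe or genome sequence was used here.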

Additional observations from a re-analysis of the deposited data

Results flagged for a closer look

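Single samples stood apart from the rest of their group in 8 of 119 groups of called genes, by a gap test with which chance marks about 1 group in 20. In CV taste buds, GPR3 was at 334.8 units in animal 1. In FG taste buds, GPR160 was at 108.3 units in animal 6 and ADGRE2 at 406.9 units in animal 1. Summed markers of differentiated keratinocytes were 1003 units in the same FG sample of animal 6 and 367.6 units in that of animal 1, inside and at the low end of the range of 367.6 to 17661.8 units in that group. In FG-adjacent LE, ADGRA1 was at 20.09 units and MRGPRE at 50.63 units, both in animal 6 and both the lowest of their group. In the top fraction of CV taste buds, ADGRB1 was at 38.22 units and ADGRE2 at 462.3 units, both in animal 10 and both the lowest of their group, and ADGRL2 was at 170.7 units, the highest, in animal 7.

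The effect of CV taste buds over LE differed from that of FG taste buds by the test of the difference for GPR183 (log2 -6.31, limma adjusted p = 0.0331) and GPR107 (log2 -2.921, adjusted p = 0.0397).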

How the results depend on the processing

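Of the 47 calls of receptor genes, 6 of them of genes named by the study's list alone, 19 were kept in every alternative that could be fitted and 1 reversed: GPR153 in FG taste buds, with a log2 change of 0.0995 when its probe sets were averaged, the fainter of which had the opposite sign. With the paired t-test after adjustment, 3 genes were higher in CV and 4 in FG taste buds, where 5.42% and 12.6% of all tested probe sets were. It gave 0 in the top fraction, where it called 0 of 21167 probe sets and so could not call any gene. Unadjusted, it gave 4 higher and 2 lower in CV against FG taste buds. It gave 3 higher and 5 lower in CV-adjacent against FG-adjacent LE, and 4 higher in the top fraction. Raising values under 25 units to 25 left 4 genes higher in FG taste buds and 1 lower CV effect, and called 1 gene higher in CV-adjacent LE. Of all 26176 tested probe sets, 4825, 246 and 440 were called so. Without the filter, 25 of 89 genes were lower in FG taste buds (15.2% of all probe sets). There 1 CV effect was lower and 0 genes were higher in the top (122 and 31 of 52024 probe sets). Without the replicate block, 1 CV effect was lower (190 of 26176 probe sets) and 2 genes were higher in the top (581 of 21167). With centred arrays 2 were higher in the top (437 of 21167). The mean of all probe sets left 1 lower CV effect (155 of 26160 over the array) and 0 genes higher in the top (352 of 21156). Leaving out 1 animal gave 7 to 9 genes higher and 6 to 9 lower in CV, 6 to 10 higher and 11 to 17 lower in FG taste buds, 0 to 1 lower CV effects and 0 in the top. The cause of these differences was not tested. Intensities near 25 units limit what can be said of dim genes.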
